A study of Homo sapiens with 120 samples.

Results

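The 10 genes described here are SRSF1, SRSF2, SRSF3, SRSF4, SRSF5, SRSF6, SRSF7, SRSF10 and SRSF11, which encode serine/arginine-rich (SR) splicing factors, and CLK1, which encodes a kinase that phosphorylates them. They were taken by gene name from tables of 57665 genes, where each name has 1 row, and all 10 were among the 26998 genes that passed a filter on low counts.

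The series sequenced RNA of 120 wells, 3 in each of 40 groups, of the human osteosarcoma line U2OS. Dmr-PERK cells are U2OS cells that stably express the eIF2α kinase domain of mouse PERK fused to the dimerization domain DmrB, and Parental cells are the same line without that construct. Cells of each line received the dimerizer AP20187 (0.2 nM), thapsigargin (100 nM) or sodium arsenite (0.05 mM) for 2, 4, 8, 16 or 24 h, or were left untreated for 0, 4, 8, 16 or 24 h. AP20187 brings the fused kinase domains together, thapsigargin depletes the calcium store of the endoplasmic reticulum, and arsenite causes oxidative stress. The submitters chose doses that gave comparable phosphorylation of eIF2α, the translation factor whose phosphorylation starts the integrated stress response, and the Parental cells given dimerizer were their control for the ligand itself. The promoter that drives the construct, and whether the line is 1 clone, are not given in the sources used here.

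SR proteins bind short enhancer sequences in exons through RNA recognition motifs and recruit the spliceosome through a tail of arginine and serine repeats. Phosphorylation of that tail by SRPK kinases in the cytoplasm and CLK kinases in the nucleus governs where the proteins sit and whether they splice. Many SR protein genes carry a conserved exon or retained intron whose inclusion brings in an early stop codon, so that the transcript is degraded by nonsense-mediated decay, and CLK1 is known to hold back a partly spliced pre-mRNA that heat and other stress release for splicing.

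Library totals ran between 12869311 and 56504690 estimated read counts, with a median of 22323605, and the mitochondrial share of counts was 2.722 to 6.612%. Construct and line labels were checked first: EIF2AK3, the gene for PERK, had 390 to 1480 CPM (counts-per-million) in the 60 Dmr-PERK libraries, against 22.7 to 175 CPM in the 60 Parental libraries. FKBP1A, the human relative of the DmrB domain, had 670 to 1740 CPM in Dmr-PERK cells, against 211 to 448 CPM in Parental cells. Both genes can take reads from the construct, and the count cannot tell construct from endogenous RNA. Markers of bone cells were mixed, with medians of 1350 for SPARC and 406 for COL1A1 in transcripts-per-million (TPM). RUNX2, ALPL, SPP1, BGLAP and COL1A2, of the same list, had 13.2, 9.55, 2.69, 1.28 and 0.277 TPM. The mesenchymal marker VIM had 1990 TPM, and the epithelial keratins KRT8 and KRT18 were also present (195 and 443 TPM). The bone marker IBSP had a median count of 0, as did KRT19, CD3E, LYZ and HBB. A pair of libraries stood apart from their groups, replicate 3 of Parental arsenite at 24 h and replicate 3 of Dmr-PERK arsenite at 4 h, and values without them are given beside the results that they moved most. The labels do not say whether the 3 wells came from separate cultures, and the p-values then measure only the spread between wells.

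All 10 genes have annotated transcripts of the nonsense-mediated decay class in GENCODE release 29 of build GRCh38, against 37.2% of 14779 tested protein-coding genes, and 8 of the 10 have a retained-intron transcript, against 50.3%. On that build SRSF1 (ENSG00000136450.12) lies at chr17:58003360-58007346 on the minus strand and SRSF3 (ENSG00000112081.16) at chr6:36594353-36605600 on the plus strand. SRSF4 (ENSG00000116350.16) lies at chr1:29147743-29181987, minus, and SRSF5 (ENSG00000100650.15) at chr14:69726900-69772005, plus. SRSF6 (ENSG00000124193.14) lies at chr20:43457928-43464247, plus, and SRSF7 (ENSG00000115875.18) at chr2:38743599-38751494, minus. SRSF10 (ENSG00000188529.14) lies at chr1:23964804-23980927, minus, SRSF11 (ENSG00000116754.13) at chr1:70205682-70253052, plus, and CLK1 (ENSG00000013441.15) at chr2:200853009-200864744, minus. The version of the SRSF2 identifier in the files (ENSG00000161547.15) differs from that release, so no position is given for it. SRSF2 overlaps MFSD11 on the opposite strand in that release over 1510 bases, where MFSD11 averaged 690.2 counts against 7620.6 for SRSF2, and the sources do not say whether reads were assigned by strand. SRSF1 overlaps 2 other annotated genes, AC015813.2 and AC015813.5, which averaged 23.9 and 114.3 counts against 9570.3 for SRSF1.

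Stretches of DNA just upstream of the annotated starts are shown for 4 genes with differing courses under arsenite, CLK1 (higher), SRSF3 and SRSF7 (lower and then higher) and SRSF11 (lower). SRSF2 is not shown. They are RefSeq sequences of GRCh38.p14, written 5′ to 3′ on the strand of the gene, and capitals mark the core of the cyclic AMP response element, TGACG or its complement CGTCA. They lie at chr2:200864745-200864908 on the minus strand (CLK1), chr6:36594112-36594352 on the plus strand (SRSF3), chr2:38751495-38751744 on the minus strand (SRSF7) and chr1:70205446-70205681 on the plus strand (SRSF11).
CLK1: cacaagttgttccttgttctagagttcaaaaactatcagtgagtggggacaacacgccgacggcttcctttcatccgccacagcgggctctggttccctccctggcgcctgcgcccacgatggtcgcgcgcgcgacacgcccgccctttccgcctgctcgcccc
SRSF3: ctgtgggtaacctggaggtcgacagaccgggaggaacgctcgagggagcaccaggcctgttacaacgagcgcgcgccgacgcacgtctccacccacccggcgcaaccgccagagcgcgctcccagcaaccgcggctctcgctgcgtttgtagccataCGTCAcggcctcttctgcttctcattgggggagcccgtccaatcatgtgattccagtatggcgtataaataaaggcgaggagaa
SRSF7: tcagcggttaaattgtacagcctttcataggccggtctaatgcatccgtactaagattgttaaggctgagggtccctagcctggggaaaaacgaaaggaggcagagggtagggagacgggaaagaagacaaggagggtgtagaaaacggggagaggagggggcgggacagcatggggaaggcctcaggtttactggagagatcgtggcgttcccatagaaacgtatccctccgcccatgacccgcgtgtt
SRSF11: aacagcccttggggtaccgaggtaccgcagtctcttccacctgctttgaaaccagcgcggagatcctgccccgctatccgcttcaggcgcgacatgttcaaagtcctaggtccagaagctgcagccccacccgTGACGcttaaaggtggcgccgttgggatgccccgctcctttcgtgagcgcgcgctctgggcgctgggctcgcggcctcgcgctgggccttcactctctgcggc
In windows of 250 bases before the RefSeq start, the element core TGACG or CGTCA was found for 5 of the 9 genes with a window (SRSF1, SRSF3, SRSF5, SRSF11 and CLK1), and in 21.2% of 35116 windows of all genes. The match for CLK1 falls inside the first exon of GENCODE and so outside the stretch shown. The windows of SRSF5 and SRSF10 lie wholly, and those of SRSF1, SRSF3, SRSF4 and SRSF11 partly, inside the gene's span in GENCODE. The core contains CG, and the 9 windows had 54.8 to 73.6% GC, against a median of 58.0% for all windows. Whether the core is more frequent than this GC content gives was not tested. None of the 9 windows held the heat shock element GAANNTTC or TTCNNGAA (11.6% of all windows), the ATF4 and CHOP composite site TGATGNAA or TTNCATCA (3.1%) or the full element TGACGTCA (1.6%). The full element contains the core, both strands were searched, and a match is only a match of letters.

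Over the 5 untreated times together, SRSF3 had the highest median of the 10 genes and CLK1 the lowest. On the length-corrected TPM scale, the 15 untreated Dmr-PERK wells had a median of 526.1 TPM for SRSF3 (495.6 to 614.7), and the 15 Parental wells had 586.3 TPM (506 to 677.5). The order depended on the time, since SRSF5 at 0 h had 533.4, 561 and 624.6 TPM in Dmr-PERK wells in which SRSF3 had 511.2, 495.6 and 527.4 TPM. SRSF5, SRSF2, SRSF7 and SRSF1 followed in Dmr-PERK cells with medians of 298.9, 275.3, 269.8 and 246.1 TPM, then SRSF6 with 179.6, SRSF11 with 147.2, SRSF10 with 133.4 and SRSF4 with 65.9 TPM. CLK1 had 33.07 TPM (25.28 to 37.49) in Dmr-PERK cells and 42.51 TPM (30.41 to 48.28) in Parental cells. Neighbours in this order overlapped in their ranges down to SRSF10 in Dmr-PERK cells and SRSF11 in Parental cells, and only SRSF4 and CLK1 stood clear of the gene above them.

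**Figure D1:**
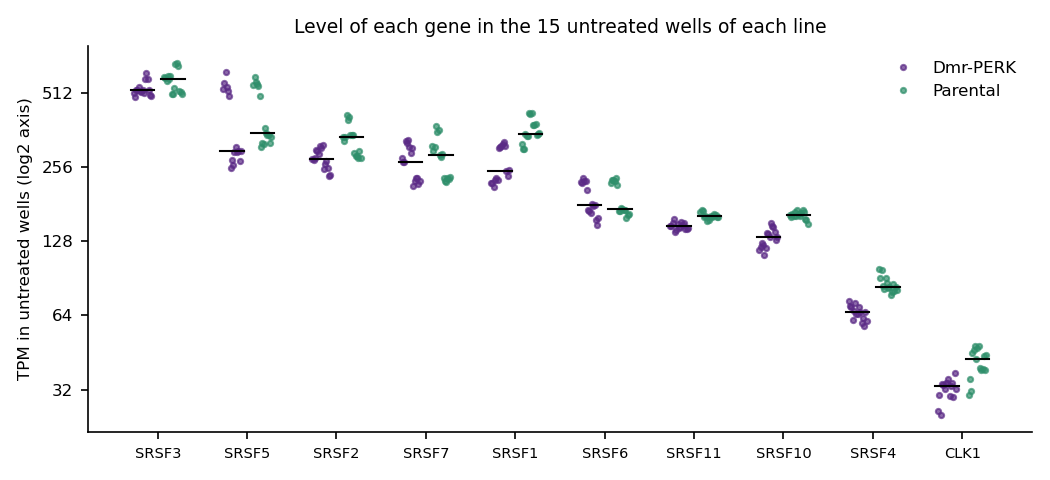
Level of each gene in transcripts-per-million (log2 axis) in the 15 untreated wells of Dmr-PERK and of Parental cells, all times together, 1 point per well. SRSF3 has the highest medians, 526.1 and 586.3 TPM, and CLK1 the lowest, 33.07 and 42.51 TPM.

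Dmr-PERK cells contained less of most of these transcripts than Parental cells before any treatment. Averaged over the 5 untreated times, 9 of the 10 genes were lower in Dmr-PERK cells by edgeR's quasi-likelihood test at an adjusted p under 0.05, where 32.2% of all tested genes were lower and 62.5% passed in either direction. The log2 difference of Dmr-PERK to Parental cells was -0.42 ± 0.01 (SE) for SRSF1, -0.41 ± 0.01 for SRSF4, -0.39 ± 0.03 for CLK1, -0.35 ± 0.01 for SRSF10 and -0.27 ± 0.02 for SRSF2. It was smaller for SRSF5 (-0.17), SRSF11 (-0.12), SRSF3 (-0.11) and SRSF7 (-0.05), and SRSF6, at -0.01, did not pass.

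The untreated wells also changed with time in culture, by an F-test over 0 to 24 h, for 9 of the 10 genes in each line (53.4 and 55.4% of all genes). SRSF11 was the gene that did not pass in either line (adjusted p = 0.176 and 0.233). SRSF5, a factor whose transcript is known to respond quickly to growth signals, had 209.3, 209.3 and 201.6 CPM at 8 h against 369.8, 394.6 and 402.8 CPM at 0 h in Dmr-PERK cells. In Parental cells it had 240.3, 240.9 and 245 CPM at 8 h against 398, 419.9 and 425.6 CPM at 0 h. The 8 h wells lay below the 0 h wells in both lines, with log2 changes of -0.91 ± 0.03 and -0.77 ± 0.03. SRSF6 fell as well by 8 h (-0.46 and -0.45), while SRSF1 (0.51 and 0.42) and CLK1 (0.44 and 0.47) rose, where 30.3% of all genes passed in Dmr-PERK and 32.4% in Parental cells. Each treatment was therefore compared with untreated wells of the same time, except that 2 h of treatment was compared with 0 h, so a 2 h value also contains 2 h in culture. Counts are shares of a library's RNA, and fewer cells and less RNA per cell cannot be told apart. Treatments of a line share their untreated wells, and their changes are not independent of each other.

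CLK1 rose with arsenite more than any SR factor did and in both lines. CLK1 is a nuclear dual-specificity kinase that phosphorylates the arginine and serine repeats of SR proteins. After 2 h of arsenite CLK1 had 46.39, 45.07 and 56.78 CPM in Dmr-PERK cells, against 31.6, 33.56 and 31.05 CPM at 0 h. After 4 h it had 211.3, 205.7 and 203.8 CPM, against 43.1, 45.23 and 40.83 CPM in untreated cells, and after 8 h 210.4, 209.2 and 210.4 CPM, against 44.09, 44.03 and 42.76 CPM. No treated well overlapped the controls it was compared with, and the level did not climb further between 4 and 8 h. Against untreated wells of 4 h, however, the 2 h well of 45.07 CPM lay below the well of 45.23 CPM. The size of the 2 h rise thus depends on the control. After 16 h it had 341.5, 320.5 and 318.4 CPM against 37.31, 41.71 and 40.43 CPM, and after 24 h 252.6, 246.1 and 264.6 CPM against 37.7, 40.69 and 38.73 CPM. The change was thus highest at 16 h, 8.18-fold (log2 3.03 ± 0.06, adjusted p = 3.38e-66), and stood at 1.54-fold at 2 h, 4.81-fold at 4 h and at 8 h and 6.53-fold at 24 h.

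In Parental cells given arsenite for 16 h, CLK1 had 335.8, 331 and 348.6 CPM against 49.98, 48.34 and 47.29 CPM in untreated cells, a 6.97-fold change. The course in Parental cells was 1.74-fold at 2 h, 3.36-fold at 4 h, 2.92-fold at 8 h and 4.86-fold at 24 h. At 24 h the Parental wells had 297.1, 289.9 and 200.6 CPM against 55.73, 50.64 and 55.57 CPM, and the lowest of them is the library that stood apart. Without the libraries that stood apart the 24 h change in Parental cells was 5.36-fold (log2 2.42). Over 4 to 24 h the rise was larger in Dmr-PERK than in Parental cells, 2.57 ± 0.03 against 2.09 ± 0.03 on the log2 scale, and the difference of 0.47 ± 0.04 passed the test (adjusted p = 2.27e-17). It was widest at 8 h (0.72 ± 0.09) and did not pass at 2 h (-0.17 ± 0.10). Untreated Dmr-PERK cells started from a lower CLK1 level, and whether this bears on the difference between lines was not tested. After 8 h of arsenite CLK1 had 145.4, 144.4 and 149.5 TPM in Dmr-PERK cells, above the 104.6, 114.8 and 114.3 TPM of Parental cells. After 16 h the levels lay close together, at 219.2 to 222.8 TPM in Dmr-PERK cells and 217.7 to 232.6 TPM in Parental cells. At that time CLK1, the least abundant of the 10 in untreated cells, had more TPM in every well than SRSF2, SRSF4, SRSF6, SRSF7, SRSF10 and SRSF11 in both lines.

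**Figure D2:**
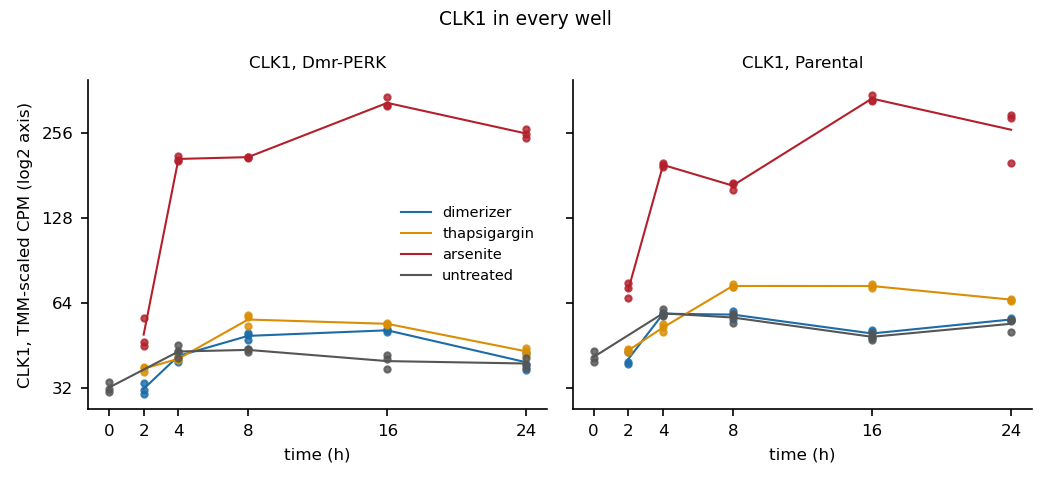
CLK1 in counts-per-million (log2 axis) in every well of Dmr-PERK and Parental cells against time in hours, coloured by treatment. Arsenite wells lie above all others from 4 h on in both lines and are highest at 16 h (318.4 to 341.5 CPM in Dmr-PERK and 331 to 348.6 CPM in Parental cells).

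Dimerizer and thapsigargin moved CLK1 by far less. Thapsigargin raised it in Dmr-PERK cells at 8 h (log2 0.36 ± 0.06) and 16 h (0.43 ± 0.07). A 2 h rise of 0.22 ± 0.07 against wells of 0 h was -0.20 against untreated wells of 4 h. Thapsigargin also raised CLK1 in Parental cells at 8 h (0.37 ± 0.06), 16 h (0.60 ± 0.06) and 24 h (0.28 ± 0.06), with a small fall at 4 h in Parental cells (-0.16 ± 0.06). Dimerizer raised it in Dmr-PERK cells at 16 h, where it had 51.54, 51.45 and 50.55 CPM against 37.31, 41.71 and 40.43 CPM in untreated wells (0.36 ± 0.07, adjusted p = 4.71e-06). At 16 h the wells did not overlap. At 8 h they did not either, with 47.32, 49.24 and 50.16 CPM against 44.09, 44.03 and 42.76 CPM, but the change did not pass (0.16 ± 0.07, adjusted p = 0.0506). At 2, 4 and 24 h dimerizer and control wells overlapped. In direct comparison over 2 to 24 h, CLK1 was lower with dimerizer than with arsenite by 2.09 ± 0.03 on the log2 scale, and lower with thapsigargin than with arsenite by 1.96 ± 0.03 in Dmr-PERK and 1.60 ± 0.03 in Parental cells (80.4, 80.8 and 79.2% of all genes passed).

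Across the 10 genes, the direction of change depended on the gene and the time. Averaged over 4 to 24 h, dimerizer in Dmr-PERK cells raised 4 of the 10, against 27.5% of all genes, and lowered 4, against 27.7% (55.2% in all). Thapsigargin raised 3 (30.9%) and lowered 7 (32.2%) in these cells, with 63.0% of all genes past the test, and arsenite raised 3 (44.4%) and lowered 6 (39.2%), with 83.6%. In Parental cells thapsigargin raised 5 (30.1%) and lowered 4 (35.0%), with 65.1% of all genes past the test, and arsenite raised 3 (42.7%) and lowered 7 (39.4%), with 82.1%. Dimerizer changed none of the 10 in Parental cells (0.582%). With arsenite the median change of all genes was itself above 0 (log2 0.12 in Dmr-PERK and 0.09 in Parental cells), so a fall of an SR factor is larger, and a rise smaller, relative to that median. With DESeq2's size factors in edgeR the median was 0.22 and 0.21, and with library totals alone -0.07 and -0.09. SRSF7, counted here among the genes that arsenite raised, averaged -0.01 in Dmr-PERK and -0.20 in Parental cells on TPM, and SRSF4, lower by 0.08 in Parental cells, was at 0.04 with DESeq2's size factors, as SRSF6 was at 0.01. Most genes of these cells passed the test, so the counts of members near those shares say little beyond the sizes given for each gene.

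At single times the share of all genes past the test set the same background. In Dmr-PERK cells it was 17.7, 30.2, 37.0, 43.2 and 48.1% with dimerizer at 2, 4, 8, 16 and 24 h. With thapsigargin in these cells it was 33.2, 39.6, 49.4, 51.5 and 55.0%, and with arsenite 19.9, 49.1, 67.4, 78.8 and 81.5%. In Parental cells it was 29.2, 40.6, 49.7, 56.2 and 54.6% with thapsigargin and 18.4, 49.2, 60.1, 78.8 and 80.5% with arsenite. It thus grew with time for each of these treatments up to 16 h. The difference between lines passed for 47.0% of all genes with dimerizer over 4 to 24 h, 25.7% with thapsigargin and 42.2% with arsenite. At 4, 8, 16 and 24 h it passed for 19.7, 27.7, 37.0 and 38.3% with dimerizer, 5.97, 11.8, 14.2 and 19.6% with thapsigargin and 11.7, 24.5, 33.1 and 36.6% with arsenite.

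**Figure D3:**
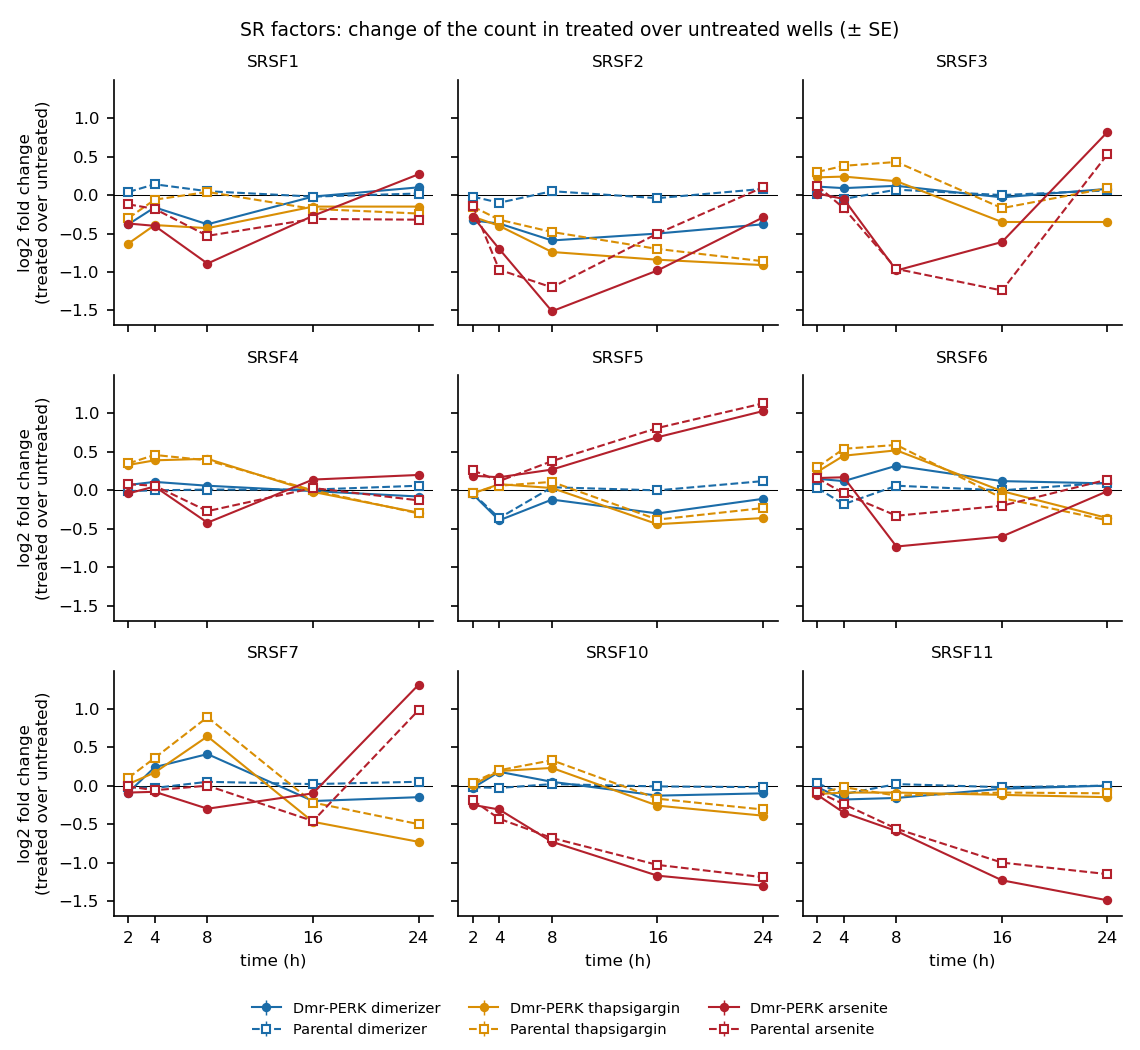
Log2 fold change (± SE) of each SR factor in treated over untreated wells against time in hours, for Dmr-PERK and Parental cells and the 3 treatments. SRSF10 and SRSF11 fall steadily with arsenite to -1.30 and -1.49 at 24 h in Dmr-PERK cells, while SRSF3 is lower at 8 h (-0.98) and higher at 24 h (0.82).

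SRSF2 fell at every time of every treatment in Dmr-PERK cells, as no other member did. SRSF2, also called SC35, is a factor of nuclear speckles that is known to lower its own mRNA by including a decay-targeting exon and intron. With dimerizer it had 249.1, 248.1 and 252.2 CPM at 8 h in Dmr-PERK cells, against 376.1, 369 and 382.3 CPM in untreated wells. With thapsigargin at 24 h it had 152.7, 150.1 and 147 CPM against 292.5, 267.9 and 281.3 CPM, and with arsenite at 8 h 133, 133 and 129.4 CPM against the same 8 h wells as for dimerizer. Treated wells lay below untreated ones at all of these times. The log2 change with dimerizer stayed between -0.33 at 2 h and -0.59 at 8 h, and averaged -0.46 ± 0.02 over 4 to 24 h. With thapsigargin it deepened with time (-0.28, -0.40, -0.74, -0.84 and -0.91 at 2, 4, 8, 16 and 24 h). With arsenite it was deepest at 8 h (-1.51 ± 0.04, 2.85-fold lower) and had returned to -0.29 ± 0.04 at 24 h, which with DESeq2's size factors was -0.06 and did not pass.

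Parental cells given dimerizer showed no such fall of SRSF2 (0.00 ± 0.02 averaged over 4 to 24 h), and the difference between lines was -0.46 ± 0.02. Thapsigargin lowered SRSF2 in Parental cells over the same course (-0.15 at 2 h to -0.86 at 24 h), less than in Dmr-PERK cells by 0.13 ± 0.03. Arsenite lowered it in Parental cells by 0.97 at 4 h and 1.20 at 8 h, and at 24 h it was slightly above untreated wells, with 353.5, 369.5 and 362.4 CPM against 334.5, 350.7 and 324.6 CPM (0.10 ± 0.04). That small rise turned to -0.20 when counts were scaled by library totals alone and to -0.19 on the TPM scale. The difference between lines at 24 h was -0.39 ± 0.05.

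SRSF1 gave an early fall in Dmr-PERK cells. SRSF1, also called ASF/SF2, is the founding SR protein and acts in both constitutive and alternative splicing. After 2 h of dimerizer it had 246.9, 222.5 and 215.3 CPM in Dmr-PERK cells, against 304.6, 296.8 and 293.1 CPM at 0 h. After 2 h of thapsigargin it had 189.7, 197 and 192.4 CPM and after 2 h of arsenite 228.6, 226.3 and 235.7 CPM, all below the 0 h wells. These are log2 changes of -0.38 ± 0.03, -0.63 ± 0.03 and -0.37 ± 0.03. In Parental cells the 2 h changes were 0.04 ± 0.03 with dimerizer, which did not pass, -0.30 ± 0.03 with thapsigargin and -0.12 ± 0.03 with arsenite. Against untreated wells of 4 h the Parental dimerizer value changed sign to -0.13. The difference between lines passed for each treatment (-0.43, -0.33 and -0.25, each ± 0.04), where 6.86, 2.12 and 2.14% of all genes passed. Of the 10 genes, SRSF1 was the only one to pass that 2 h test for thapsigargin and for arsenite, and with SRSF2 one of 2 for dimerizer.

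The later course of SRSF1 differed between treatments. With dimerizer it was -0.38 ± 0.03 at 8 h, did not pass at 16 h (-0.02 ± 0.03) and was a small rise at 24 h (0.10 ± 0.03). With thapsigargin it shrank to -0.15 at 16 and 24 h in Dmr-PERK cells, where it still passed. In Parental cells the thapsigargin change did not pass at 4 and 8 h (-0.06 and 0.04) and was lower again at 16 h (-0.18 ± 0.03) and 24 h (-0.24 ± 0.03). With arsenite it was deepest at 8 h in both lines (-0.89 and -0.53), and at 24 h the lines parted, with 382.5, 373.4 and 404.6 CPM against 324.8, 308.9 and 328.8 CPM in Dmr-PERK cells (0.27 ± 0.03), and 358.2, 363.1 and 343.2 CPM against 439.9, 453.3 and 436.9 CPM in Parental cells (-0.32 ± 0.03). The wells of neither line overlapped their controls, and the difference between lines was 0.59 ± 0.04. The rise in Dmr-PERK cells depended on the scaling, with a log2 change of 0.00 on library totals alone and -0.02 on TPM.

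SRSF3 and SRSF7 were lower and then higher during arsenite treatment. Both are small SR proteins that also couple splicing to mRNA export through the export receptor NXF1, and SRSF7 has a zinc knuckle beside its RNA recognition motif. In Parental cells SRSF3 was first a little higher at 2 h (0.12 ± 0.04). After 8 h of arsenite SRSF3 had 181.2, 171.6 and 168.3 CPM in Dmr-PERK cells, against 343, 341.9 and 343 CPM in untreated cells. After 24 h it had 562.6, 548.1 and 612.7 CPM, against 334.8, 318.2 and 321.3 CPM. The wells were thus all below the controls at 8 h and all above them at 24 h, with log2 changes of -0.98 ± 0.04 and 0.82 ± 0.04. Parental cells followed the same course with a lower point at 16 h, where SRSF3 had 177.4, 181.8 and 191.3 CPM against 446.6, 430.2 and 420.4 CPM (-1.24 ± 0.04, 2.36-fold lower). At 24 h they had 448.6, 465.2 and 493 CPM against 329.8, 331.8 and 315.6 CPM (0.53 ± 0.04), but on the TPM scale this late change in Parental cells was -0.14. At 16 h the arsenite change was less deep in Dmr-PERK cells, by 0.63 ± 0.05.

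SRSF7 changed little between 2 and 8 h of arsenite (-0.09, -0.08 and -0.30 in Dmr-PERK cells, of which only the 8 h value passed) and rose late. Without the library that stood apart, the 4 h value was -0.15 and passed. At 24 h it had 400.7, 380 and 444.2 CPM in Dmr-PERK cells against 168.6, 161.1 and 164.7 CPM, and 330.9, 331.9 and 346.8 CPM in Parental cells against 169.9, 169.9 and 170.6 CPM. These wells were all above their controls, by 2.48-fold and 1.98-fold (log2 1.31 ± 0.04 and 0.98 ± 0.04). On the TPM scale the rises were smaller, 0.84 and 0.24. Before that it had been lower at 16 h, by 0.10 ± 0.04 in Dmr-PERK and 0.46 ± 0.04 in Parental cells, of which the Dmr-PERK value was 0.05 with DESeq2's size factors.

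**Figure D4:**
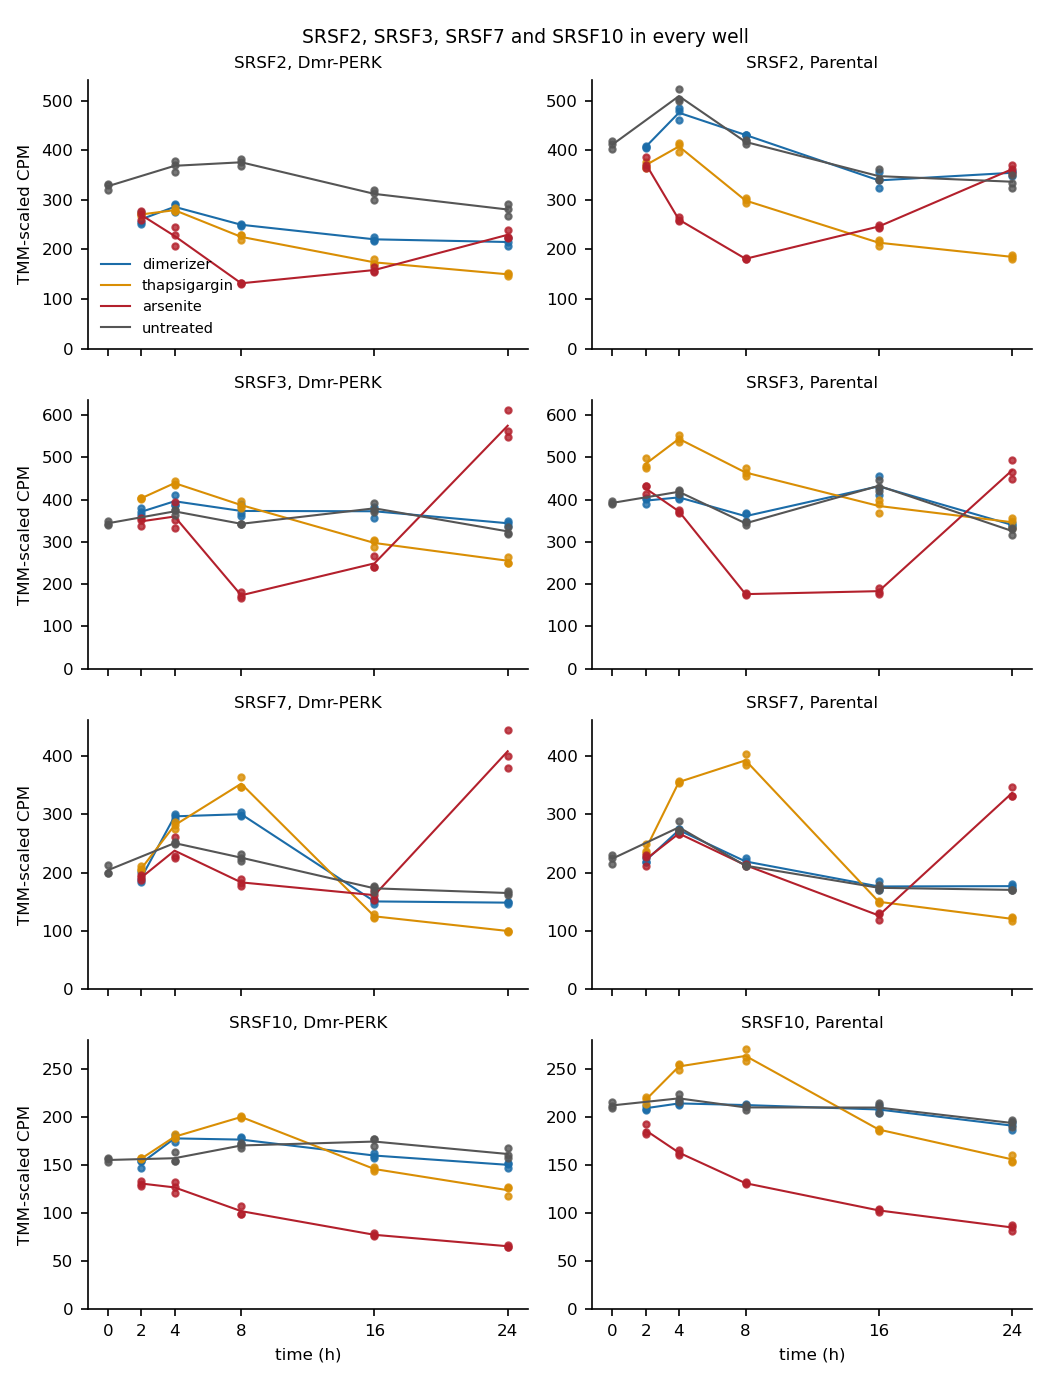
SRSF2, SRSF3, SRSF7 and SRSF10 in counts-per-million in every well of Dmr-PERK and Parental cells against time in hours, coloured by treatment, with the axes starting at 0. At 24 h of arsenite SRSF3 and SRSF7 lie above untreated wells in both lines on this scale (SRSF3 in Parental cells does not on TPM, -0.14) and SRSF10 lies below (64.54 to 67.27 CPM in Dmr-PERK cells).

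With thapsigargin the order was the other way round, higher early and lower late. SRSF7 had 347.2, 364.1 and 346.4 CPM at 8 h in Dmr-PERK cells against 231.6, 219.9 and 224.9 CPM, and 100, 100.2 and 98.54 CPM at 24 h against 168.6, 161.1 and 164.7 CPM. The log2 changes were 0.64 ± 0.04 and -0.73 ± 0.04 in Dmr-PERK cells, and 0.89 ± 0.04 and -0.50 ± 0.04 in Parental cells. Dimerizer gave Dmr-PERK cells the same signs with smaller sizes, 0.24 at 4 h, 0.41 at 8 h, -0.20 at 16 h and -0.15 at 24 h, each ± 0.04, and none of the SRSF7 values of dimerizer in Parental cells passed. SRSF3 rose with thapsigargin up to 8 h in both lines (at 8 h by 0.18 ± 0.04 in Dmr-PERK and 0.43 ± 0.04 in Parental cells). It was lower after 24 h in Dmr-PERK cells, with 264.5, 251.1 and 250.5 CPM against 334.8, 318.2 and 321.3 CPM (-0.35 ± 0.04). In Parental cells at 24 h it was higher, with 357.2, 350.4 and 331.7 CPM against 329.8, 331.8 and 315.6 CPM, where 1 treated well falls among the untreated ones (0.09 ± 0.04), and the lines differed by -0.44 ± 0.05.

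SRSF4 and SRSF6, close relatives that each carry 2 RNA recognition motifs, shared the early rise with thapsigargin. SRSF6 had 450, 446.5 and 435.8 CPM at 4 h in Dmr-PERK cells against 334.7, 335.1 and 305.1 CPM, and 485.9, 488.8 and 481.1 CPM in Parental cells against 339.9, 341 and 317.5 CPM. Both lines stood clear of their controls, with log2 changes of 0.45 ± 0.03 and 0.54 ± 0.03. SRSF4 rose by 0.39 ± 0.03 and 0.46 ± 0.03 at the same time. By 24 h of thapsigargin both were lower, SRSF6 by 0.36 ± 0.03 in Dmr-PERK and 0.39 ± 0.03 in Parental cells, and SRSF4 by 0.29 ± 0.03 and 0.30 ± 0.03. The thapsigargin change of neither gene differed between lines over 4 to 24 h by the test (both -0.01 ± 0.02). A p that misses the threshold does not show that they were equal.

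SRSF6 was the SR factor that dimerizer raised at every time in Dmr-PERK cells, between 0.09 ± 0.03 at 24 h and 0.32 ± 0.03 at 8 h, where it had 294.4, 293.1 and 288.4 CPM against 236.5, 235.1 and 232.2 CPM. In Parental cells its change with dimerizer was -0.18 ± 0.03 at 4 h and did not pass at other times. With arsenite SRSF6 was slightly higher at 2 h (0.16 ± 0.03 in each line) and lower at 8 h (-0.73 ± 0.03 in Dmr-PERK and -0.33 ± 0.03 in Parental cells) and SRSF4 was too (-0.42 and -0.27). At 24 h of arsenite SRSF4 was higher in Dmr-PERK cells (0.20 ± 0.03) and lower in Parental cells (-0.13 ± 0.03), and both signs depended on the scaling. The Dmr-PERK value was -0.07 on library totals alone and -0.19 on TPM, and the Parental value was 0.10 with DESeq2's size factors.

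SRSF5 was the SR factor that was higher with arsenite than in its controls at every time in both lines. After 24 h of arsenite SRSF5 had 431.8, 423.9 and 449 CPM in Dmr-PERK cells against 215.7, 209 and 214.5 CPM, and 559.8, 545.7 and 521 CPM in Parental cells against 250.6, 246.8 and 247.9 CPM. These controls had themselves fallen with time in culture. At 0 h untreated wells had 369.8, 394.6 and 402.8 CPM in Dmr-PERK and 398, 419.9 and 425.6 CPM in Parental cells. Treated wells were above all controls, by 2.04-fold and 2.18-fold (log2 1.03 ± 0.03 and 1.13 ± 0.03), and the change had grown from 2 h on in Parental cells except at 4 h (0.26, 0.12, 0.38 and 0.81 at 2, 4, 8 and 16 h). The Parental 4 h value did not pass on library totals alone (0.02) or on TPM (0.03). With dimerizer SRSF5 fell at 4 h in both lines, where it had 293.6, 288.2 and 283.9 CPM against 388.5, 385.6 and 360.4 CPM in Dmr-PERK cells, and 317.8, 306.3 and 303.8 CPM against 406.3, 402.7 and 381.1 CPM in Parental cells. The changes of -0.39 ± 0.03 and -0.36 ± 0.03 did not differ by the test (-0.03 ± 0.05). From 8 to 24 h dimerizer lowered SRSF5 in Dmr-PERK cells (-0.12, -0.30 and -0.11), and the line differences of -0.16, -0.30 and -0.24 each passed.

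SRSF10 and SRSF11 declined progressively with arsenite. SRSF10 is known as a splicing repressor that acts when it loses phosphate during heat shock and mitosis, and SRSF11 is an SR-related protein that associates with the splicing factor U2AF. SRSF11 had 57.61, 55.62 and 57.07 CPM after 24 h in Dmr-PERK cells against 158.9, 156.2 and 163.3 CPM, and 72.22, 72.61 and 90.42 CPM in Parental cells against 178.3, 172.7 and 169.1 CPM. All treated wells were below the controls, 2.81-fold in Dmr-PERK and 2.22-fold in Parental cells, and the highest of the Parental wells is the library that stood apart. Without the libraries that stood apart the Parental change was -1.28 on the log2 scale, against -1.15 with them. The course of SRSF11 in Dmr-PERK cells was -0.12, -0.35, -0.59, -1.23 and -1.49 at 2, 4, 8, 16 and 24 h. SRSF10 had 64.54, 64.79 and 67.27 CPM at 24 h in Dmr-PERK cells against 167.8, 157.2 and 160.2 CPM, and 81.87, 85.68 and 87.84 CPM in Parental cells against 194.8, 197.2 and 190.2 CPM. Its course was -0.25, -0.31, -0.73, -1.17 and -1.30 in Dmr-PERK cells and -0.19, -0.43, -0.68, -1.03 and -1.19 in Parental cells.

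The other treatments moved SRSF11 less. Dimerizer lowered it in Dmr-PERK cells at 4 h, with 138.7, 138.3 and 144.1 CPM against 166.5, 158.5 and 151.9 CPM (-0.18 ± 0.04), and at 8 h (-0.16 ± 0.04), and it did not pass at 2, 16 and 24 h. At 4 h SRSF11 was lower with dimerizer in Parental cells too. The difference between lines did not pass for SRSF11 at 4 h and passed at 8 h. With thapsigargin its change lay between -0.15 and -0.09 in Dmr-PERK cells and did not vary with time by the F-test (adjusted p = 0.697 in Dmr-PERK and 0.242 in Parental cells), where 52.2 and 49.9% of all genes passed. On the TPM scale the Dmr-PERK values at 2, 4 and 8 h were 0.03, 0.04 and 0.01. SRSF10 rose with thapsigargin at 8 h (0.23 in Dmr-PERK and 0.33 in Parental cells) and was lower at 24 h (-0.39 and -0.31). Over the 40 groups the mean log2 CPM of SRSF10 and SRSF11 had a Pearson correlation of 0.90, and that of CLK1 with SRSF11 was -0.81. These groups share lines, times and untreated cells, and the values are descriptions.

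Parental cells given dimerizer passed the test for 4 of the 10 genes at 4 h and for none at 2, 8, 16 or 24 h. At 4 h, where 7.52% of all genes passed, SRSF1 was higher (0.14 ± 0.03) and SRSF5 (-0.36 ± 0.03), SRSF6 (-0.18 ± 0.03) and SRSF11 (-0.11 ± 0.04) were lower. At 2 h 0.178% of all genes passed, and at 8, 16 and 24 h 0.0% did. At those times 1115, 1369 and 1399 of the 26998 genes had an unadjusted p under 0.05, which is near or below the 5% that a test gives with no change. In Dmr-PERK cells at 4 h dimerizer changed 8 of the 10 genes (30.2% of all genes).

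Dimerizer and thapsigargin differed in Dmr-PERK cells early and late, in a direction that depended on the gene and the time. At 24 h 9 SR factors had higher counts with dimerizer than with thapsigargin (23.5% of all genes were higher and 38.8% passed in either direction), by 0.57 ± 0.04 for SRSF7, 0.52 ± 0.04 for SRSF2, 0.45 ± 0.03 for SRSF6 and 0.43 ± 0.04 for SRSF3. At 24 h thapsigargin had lowered all 9 SR factors against untreated Dmr-PERK cells (27.5% of all genes were lower), between -0.15 ± 0.03 for SRSF1 and -0.91 ± 0.04 for SRSF2. At 4 h the order had been the other way for SRSF4 (-0.28 ± 0.03), SRSF5 (-0.47 ± 0.03), SRSF6 (-0.33 ± 0.03) and SRSF3 (-0.15 ± 0.04). These were lower with dimerizer than with thapsigargin (11.6% of all genes were lower and 24.7% passed), while SRSF1 was higher, as at 2 h. The change of each effect between 4 and 24 h passed an F-test for 9 of 10 genes with dimerizer, 9 with thapsigargin and 10 with arsenite in Dmr-PERK cells (42.1, 52.2 and 71.2% of all genes). In Parental cells it passed for 2, 9 and 10 genes (3.76, 49.9 and 73.1%).

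The deposited counts and TPM also carry a measure of which transcripts a gene's reads came from, examined after the data had been seen. The ratio of estimated count to TPM follows the mean effective length of a gene's transcripts weighted by abundance. Its log2, less the median of 562 genes with 1 transcript in each library, is called the length index here, and it was compared with limma over 10420 genes with counts of at least 50. Genes with 1 transcript varied in it by a median SD of 0.00146 over the 120 libraries, against 0.0934 for all 10420 genes.

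After 24 h of arsenite the reads of 8 of the 10 genes came from a different mix of transcript lengths in each line (43.1% of genes in Dmr-PERK and 48.0% in Parental cells), 7 of them shorter and 1, SRSF7, longer. Shorter was also the more frequent direction among all 10420 genes. There 3487 passed as shorter and 1007 as longer in Dmr-PERK cells, and 3595 and 1405 in Parental cells. The mean length behind SRSF5 changed by -28.8% in Dmr-PERK and -24.2% in Parental cells, and that behind SRSF11 by -21.1% and -18.5%. For SRSF2 the changes were -16.1% and -20.2%, for SRSF10 -14.6% and -16.9%, and for SRSF7 3.9% and 8.9%. SRSF3 changed by -14.7% in Dmr-PERK cells and by 3.3% in Parental cells, where it did not pass, and the lines differed by -17.4% (14.2% of genes passed). Without the libraries that stood apart the Parental values were -23.2% for SRSF5, -17.5% for SRSF11, -18.4% for SRSF2, -15.4% for SRSF10, 11.7% for SRSF7 and 1% for SRSF3, with the same calls, and the SRSF3 difference between lines was -15.6%. The annotated transcripts of SRSF5 run from 526 to 3044 bases with protein-coding and retained-intron forms at both ends of that range, so the index alone does not name the transcript.

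With thapsigargin the length index of SRSF3 rose early in both lines. Its mean length was higher by 7.7, 7.6 and 9.0% at 2, 4 and 8 h in Dmr-PERK cells and by 7.6, 6.1 and 8.8% in Parental cells, where 1.8, 2.76 and 5.83% of genes passed in Dmr-PERK and 2.49, 3.36 and 6.84% in Parental cells. With dimerizer it was higher by 5.8% at 8 h in Dmr-PERK cells (1.86% of genes passed). The annotated forms of SRSF3 include a protein-coding transcript of 869 bases and one of 4222 bases, decay-class transcripts of 595 and 1095 bases and retained-intron transcripts of 544 to 2655 bases. SRSF7 was longer at 24 h with dimerizer in Dmr-PERK cells (8.5%) and with thapsigargin in Dmr-PERK (10.9%) and Parental cells (9.0%), where 3.92, 9.32 and 6.44% of genes passed. None of the 10 genes passed with dimerizer in Parental cells at any time (0.259% of genes at 4 h, 0.0096% at 24 h and 0.0% at 2, 8 and 16 h).

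**Figure D5:**
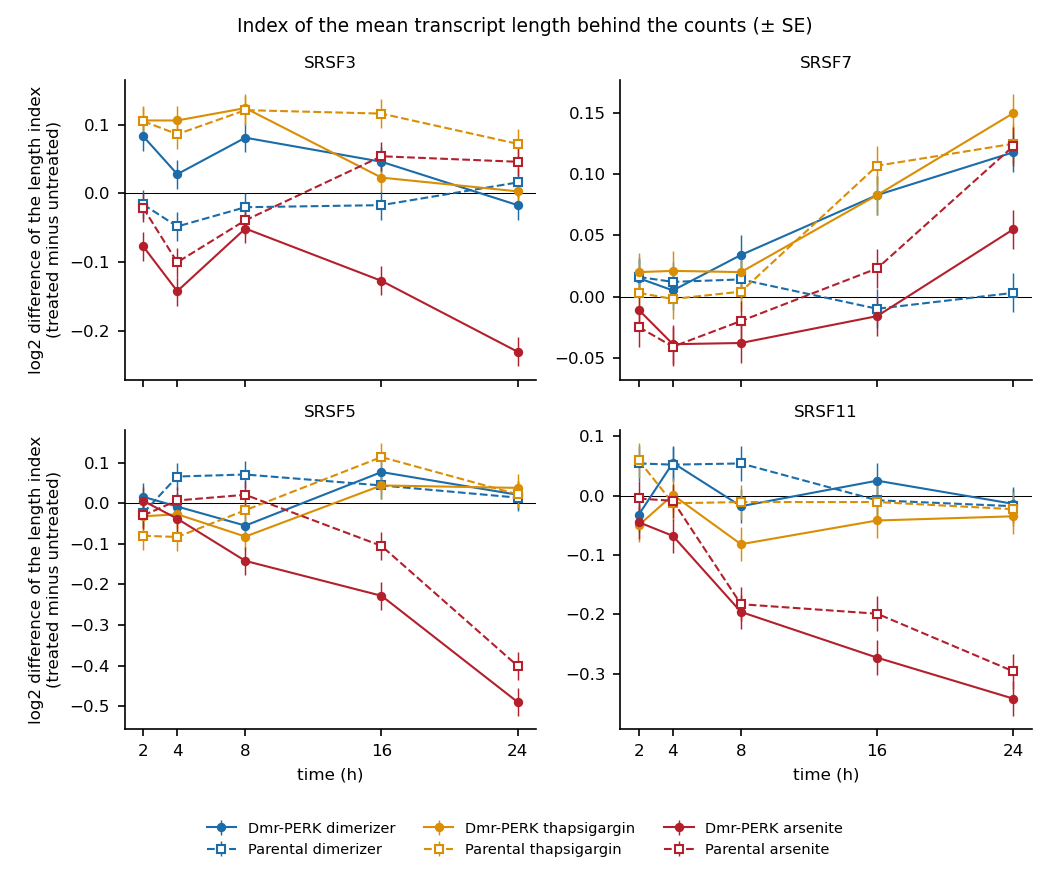
Log2 difference (± SE) of the length index in treated minus untreated wells against time in hours for the genes shown, in Dmr-PERK and Parental cells. Negative values mean that reads came from shorter transcripts on average, and at 24 h of arsenite SRSF5 reaches -0.49 in Dmr-PERK and -0.40 in Parental cells.

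For CLK1 the size of the length change depended on 1 library. At 24 h of arsenite in Parental cells its index was -0.67, -0.64 and -1.49 in the 3 wells against -0.45, -0.41 and -0.43 in untreated wells, and the mean length changed by -29.3%. Without the third well, which also had a mitochondrial share of 4.135% against 6.505 and 6.612% in the others, the change was -14.2% (limma, adjusted p = 0.000152). In Dmr-PERK cells the change at that time was -4.5% and did not pass.

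Other genes of the same pathway moved in both directions, and the lists were chosen with earlier results of these data known. Of 12 genes for SR protein kinases, phosphatases and import, arsenite raised 4 and lowered 7 in Dmr-PERK cells over 4 to 24 h (44.4% of all genes were higher and 39.2% lower), with a median of -0.52 against 0.12 for all genes. CLK2 fell by 1.86 ± 0.03 and SRPK1, the cytoplasmic SR kinase, by 1.29 ± 0.02 on the log2 scale, while TNPO3, the importer of SR proteins, rose by 0.65 ± 0.02. CLK1 and CLK2 thus had opposite signs. In Parental cells arsenite raised 4 and lowered 6 (42.7 and 39.4% of all genes), among them SRPK1 (-1.40 ± 0.03) and PPP1CC (-1.03 ± 0.02), a catalytic subunit of protein phosphatase 1. Thapsigargin raised 5 and lowered 6 in each line (30.9 and 32.2% of all genes in Dmr-PERK, 30.1 and 35.0% in Parental cells). Dimerizer raised 4 and lowered 3 in Dmr-PERK cells (27.5 and 27.7% of all genes), among them SRPK2 (0.30 ± 0.02) and PPP1CC (-0.34 ± 0.01).

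Of 22 other SR and SR-like proteins, arsenite raised 8 and lowered 13 in Dmr-PERK cells (median -0.16), and raised 7 and lowered 14 in Parental cells (median -0.10). With 83.6 and 82.1% of all genes past the test, that nearly all of them passed is close to the background. RSRC2 rose (1.37 and 1.35) as did TRA2B (0.48 and 0.53), an activator of many neural and muscle exons, whereas PNN (-1.46 and -0.91) and SRSF8 (-1.43 and -1.41) fell, each with an SE of 0.01 to 0.03. Thapsigargin, in contrast, raised SRSF8 in both lines (0.59 ± 0.03 and 0.53 ± 0.03). Of 17 hnRNP proteins, which often oppose SR proteins at splice sites, thapsigargin lowered 16 in each line (32.2% of all genes in Dmr-PERK and 35.0% in Parental cells), including HNRNPA2B1 (-0.61 and -0.43). Dimerizer lowered 14 of the 17 in Dmr-PERK cells (27.7% of all genes) and changed none in Parental cells (0.582%). Of 27 core spliceosome genes, thapsigargin lowered 19 and raised 5 in each line, against the same shares of all genes. Arsenite lowered 25 in Dmr-PERK and 21 in Parental cells (39.2 and 39.4% of all genes), PRPF8 among them (-1.01 and -1.22).

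Of 10 factors of nonsense-mediated decay, the pathway that removes many SR transcripts, dimerizer raised 8 and lowered 1 in Dmr-PERK cells (27.5 and 27.7% of all genes; median 0.27), SMG6 by 0.51 ± 0.02. Thapsigargin raised 7 of them in Dmr-PERK and 8 in Parental cells (30.9 and 30.1% of all genes). Arsenite lowered 7 in each line (39.2 and 39.4%), UPF1, the central helicase of the pathway, by 0.75 ± 0.02 and 0.81 ± 0.02. All 8 heat shock genes passed as higher with arsenite in both lines (medians 3.49 and 3.62, where 44.4 and 42.7% of all genes were higher). All 8 passed as lower with thapsigargin in Dmr-PERK cells (median -1.23) and in Parental cells (-1.18), and with dimerizer in Dmr-PERK cells (-0.73), where 32.2, 35.0 and 27.7% of all genes were lower. All 8 genes of the ATF4 program, the transcriptional arm of the integrated stress response, passed as higher with dimerizer in Dmr-PERK cells (median 2.51, 27.5% of all genes higher). They also all passed as higher with thapsigargin (2.97 in Dmr-PERK and 2.84 in Parental cells, 30.9 and 30.1% of all genes) and with arsenite (3.83 and 4.02). None of either list passed with dimerizer in Parental cells.

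By correlation of group means over the 40 groups, among 12332 genes with at least 5 CPM, the genes most like CLK1 were NBPF25P (r = 0.968), RP11-864I4.1 (0.962) and DNAJC7 (0.952), and those most like SRSF11 were CREBZF (0.976), DDX12P (0.973) and TSPYL5 (0.971). SRSF10 was most like RBM26 (0.963), SRSF5 like EPPK1 (0.912), SRSF1 like TIMM50 (0.910), SRSF6 like TRAF4 (0.909), SRSF2 like SNRNP70 (0.896) and SRSF4 like LMO7 (0.839). SRSF7 and SRSF3 had less close partners, PANK2 (0.790) and CFAP20 (0.780). These are likenesses of pattern over groups that share lines, treatments and times, with no test.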

How the data were processed

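RNA from triplicate wells of 24-well plates was made into directional RNA libraries, per the labels' protocols, and the build GRCh38, Salmon 0.9.1 and FastQC 0.11.5 appear in the submitters' processing notes. The deposited tables hold estimated counts per gene, which need not be whole and were rounded here, and TPM computed by the authors. No source used here says whether counting used strand, which limits genes with antisense or overlapping neighbours. Library totals are given in the report, and each level rests on 3 wells.

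Counts were tested with edgeR 4.0.16 in R 4.3.3 (TMM scaling, filterByExpr with a minimum count of 10, quasi-likelihood test over all 40 groups). P-values were Benjamini-Hochberg adjusted over 26998 genes with a threshold of 0.05. Standard errors are the log2 change over the root of F. CPM are TMM-scaled, and nothing in the labels says that wells were separate cultures, so p-values measure the spread between wells. TPM were tested with limma 3.58.1 on log2(TPM + 1) as an alternative, beside DESeq2 1.42.0, other scalings, no filter, a replicate block, and leaving out each replicate. The count-to-TPM ratio and the fit without libraries that stood apart were added after seeing the data. The procedure was tested on simulated data.

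The 10 genes and all lists were chosen with earlier results of these data known. The 10 are named in every comparison, other lists by the 2 smallest adjusted p in each direction, and the 3 genes most like each member by Pearson's r of group mean log2 CPM (prior count 2) among genes averaging at least 5 CPM. Promoter sequences are RefSeq's, with the table's build.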

Additional observations from a re-analysis of the deposited data

Results flagged for a closer look

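These results drew attention because the same treatment moved a gene differently in Dmr-PERK and Parental cells, by a test of the difference itself with edgeR's quasi-likelihood test. Values are log2 differences, Dmr-PERK minus Parental, averaged over 4 to 24 h unless a time is given. No explanation was tested.

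With dimerizer the SRSF2 difference was -0.46, SRSF5 -0.18, SRSF1 -0.16 and SRSF11 -0.07, while SRSF6 was at 0.17, in a comparison in which 47.0% of all genes passed. With thapsigargin, where 25.7% of all genes passed, the SRSF3 difference was -0.25, SRSF7 -0.23, SRSF1 -0.16, SRSF2 -0.13, SRSF10 -0.07 and SRSF5 -0.06.

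With arsenite, where 42.2% of all genes passed, the CLK1 difference was 0.47, SRSF3 0.26, SRSF7 0.09 and SRSF4 0.07. On the negative side SRSF2 was at -0.23, SRSF6 and SRSF11 at -0.18 and SRSF5 at -0.07, of which the SRSF5 value changed sign on the TPM scale.

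At 2 h SRSF1 differed between lines with all 3 treatments, by -0.43 with dimerizer, -0.33 with thapsigargin and -0.25 with arsenite, where 6.86, 2.12 and 2.14% of all genes passed. The 3 values share the untreated wells of 0 h of each line.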

How the results depend on the processing

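The 460 log2 changes of the 10 genes were recomputed with other scalings, filters, tools and samples. A change of sign was counted only for values that passed the test in the reported fit or in the other fit. Values that passed in neither were counted as keeping their call, whatever their sign. CLK1 at 16 h of arsenite in Dmr-PERK cells stayed between 2.74 and 3.19, its arsenite difference between lines between 0.42 and 0.54, and SRSF2 at 8 h of arsenite in Dmr-PERK cells between -1.65 and -1.45, all with the same call. With no filter on low counts 437 values kept their call, and without the libraries that stood apart 444 did. In neither setting did a value that passed in either fit change sign. Wells with the same replicate number were on average barely more alike than others. The mean correlation of deviations was 0.004 (-0.21 to 0.29) for 2340 pairs with the same number and -0.002 for other numbers. Of 120 libraries, 53 correlated best with their own number, where about 1 in 3 would with no pairing. These values do not settle whether the numbers pair some of the wells. With the replicate block all 460 values kept their call and none that passed changed sign. The Parental dimerizer mean had 157 called genes with and without the block. Leaving out 1 replicate number in turn gave 7 to 8 called members for the dimerizer mean in Dmr-PERK cells, 9 to 10 for thapsigargin and 9 to 9 for arsenite, and in Parental cells 0 to 0, 9 to 9 and 10 to 10. At 2 h the counts were 3 to 3, 5 to 7 and 6 to 8 in Dmr-PERK cells and 0 to 0, 5 to 6 and 5 to 7 in Parental cells. Differences between lines had 4 to 5, 4 to 5 and 7 to 8 called members (47.0, 25.7 and 42.2% of all genes with every replicate). Untreated lines had 8 to 9 (62.5%). Direct comparisons in Dmr-PERK cells had 6 to 8 for dimerizer against thapsigargin, and 9 to 10 and 9 to 9 for each against arsenite (80.4 and 80.8%). For dimerizer against thapsigargin 13956 of 26998 genes had an unadjusted p under 0.05 by edgeR.

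The cause of the following changes was not tested. Of no called member for the Parental dimerizer mean, limma on log2(TPM + 1) and DESeq2 each called 1. With untreated wells of 4 h as control, Parental dimerizer at 2 h had 5 called, against 0 with those of 0 h. The 4 h control wells also differ from the 2 h wells by time in culture. Untreated Parental wells of 4 h against 0 h had 5 of the 10 members called. In that untreated comparison 7789 of all tested genes had an unadjusted p under 0.05 by edgeR. The share of all genes called at 2 h with the 4 h control is not given. Whether those 5 calls come from dimerizer or from time was not tested. Over all genes the 157 calls of the Parental dimerizer mean were 45, 4 and 126 without replicates 1, 2 and 3, 94 with no filter, 28 and 14 with limma on TPM with pseudocounts of 1 and 0.1, 291 with DESeq2 and 384 without the libraries that stood apart.

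With DESeq2's size factors in edgeR, and with DESeq2 itself, 7 values each that passed in either fit changed sign, all involving arsenite. In Dmr-PERK cells SRSF4 averaged 0.11 and 0.10, SRSF7 was 0.05 at 16 h and SRSF6 0.22 at 24 h. In Parental cells SRSF4 averaged 0.04 and SRSF6 0.01, SRSF4 was 0.10 at 24 h, and dimerizer against arsenite was -0.06 for SRSF4 in Dmr-PERK cells. With library totals alone 10 values that passed in either fit changed sign. These were, with arsenite in Dmr-PERK cells, SRSF4 at -0.10 (16 h) and -0.07 (24 h) and SRSF1 at -0.00 (24 h). With arsenite in Parental cells they were SRSF7 at -0.07 (mean) and -0.14 (8 h), SRSF4 at -0.16 (16 h), SRSF2 at -0.20 and SRSF6 at -0.17 (24 h). SRSF7 was 0.04 for dimerizer against arsenite and SRSF1 0.14 for thapsigargin against arsenite.

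With limma on log2(TPM + 1), 20 values that passed in either fit changed sign, and the same 20 did with a pseudocount of 0.1, within 0.01. With dimerizer and thapsigargin in Dmr-PERK cells SRSF10 averaged 0.04 and 0.05, and SRSF11 with thapsigargin was 0.03 (0.04 with the smaller pseudocount), 0.04 and 0.01 at 2, 4 and 8 h. With arsenite in Dmr-PERK cells SRSF7 averaged -0.01, SRSF4 was -0.09 at 16 h and -0.19 at 24 h, and SRSF1 was -0.02 at 24 h. With arsenite in Parental cells SRSF7 averaged -0.20 and was -0.19 at 8 h, SRSF4 was -0.15 and -0.16 at 16 h, and at 24 h SRSF2 was -0.19, SRSF3 -0.14 and SRSF6 -0.30 and -0.31. The SRSF5 arsenite difference between lines was 0.11. In direct comparisons in Dmr-PERK cells SRSF10 was -0.02 and SRSF11 -0.05 for dimerizer against thapsigargin, SRSF7 0.04 for dimerizer against arsenite and SRSF1 0.18 for thapsigargin against arsenite.

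With untreated wells of 4 h as the control of 2 h, 9 values that passed with either control changed sign. In Dmr-PERK cells SRSF3 was -0.00 with dimerizer and -0.09 with arsenite, SRSF4 0.11 with arsenite, and SRSF7 -0.28 and CLK1 -0.20 with thapsigargin. In Parental cells SRSF1 was -0.13 and SRSF4 0.08 with dimerizer, and SRSF7 -0.21 and CLK1 -0.43 with thapsigargin.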
